A study of Mus musculus with 12 samples.

Results

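The WNT pathway was examined in the mouse colorectal carcinoma line CT26 through 64 genes chosen by name and known role. They comprise the genes named Wnt, Fzd or Sfrp with a number (WNT ligands, Frizzled receptors and secreted Frizzled-related proteins), the inhibitors Dkk1 to Dkk4, and 27 further genes for ligand secretion, co-receptors, receptor turnover, signal transduction and nuclear factors. Of the 64, 37 were among the 17718 genes of the count table, and the other 27 are not analysed here. Enough reads for a test were present for 29 of the 37, and the remaining 8 are described by their counts. The rule used no expression value, but these genes, like the pathway lists further below, were chosen with earlier results of these data known.

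Gene expression was measured by polyA RNA-seq of cultured cells, in 3 libraries labelled Mll3 knock-out (genotype Mll3KO) and 3 labelled Mll3 wild-type (genotype WT, no treatment). CT26 comes from a BALB/c mouse, and the Mll3 gene, now called Kmt2c, encodes a histone methyltransferase that marks enhancers. The deposited table names the knock-out libraries sg1, sg2 and sg3, and the labels do not say whether these are guides, clones or repeats of 1 culture. No source says that the libraries of a genotype were grown as separate cultures, so a p-value here reflects the spread among these libraries alone, and that spread may be technical.

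WNT proteins are secreted lipid-modified ligands that bind Frizzled receptors together with Lrp5 or Lrp6. Without ligand, a destruction complex of Axin, Apc, casein kinase and glycogen synthase kinase marks beta-catenin for degradation. With ligand, the complex is held back by Dishevelled, and beta-catenin enters the nucleus and switches on genes through TCF and LEF factors. The pathway maintains the stem cells of the intestinal crypt, and colorectal tumours commonly carry mutations that keep it active.

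Library totals ran from 9786242 to 11129754 counts in knock-out and from 9559658 to 13406013 in wild-type libraries. Levels are given in CPM (counts scaled to library size with TMM factors), where 1 count is 0.0786 to 0.108 CPM. Kmt2c itself stood at 16.0, 11.2 and 14.8 CPM in knock-out libraries, against 24.9, 26.2 and 25.0 CPM in wild-type libraries (log2 fold change -0.87, SE 0.129, edgeR adjusted p = 4.33e-08). These counts cover the full gene and do not locate the edit. Of 9 markers of colon epithelium, 4 were in the table, and their summed level was 160.6 to 173.8 CPM in knock-out and 53.0 to 55.5 CPM in wild-type libraries. The keratins Krt8, Krt18 and Krt20 rose, Krt8 having reached the minimum for testing only through the knock-out libraries. Vil1, the other marker in the table, had too few reads for a test. It overlapped between the genotypes, at 0.0961 to 0.294 CPM in knock-out and 0.102 to 0.471 CPM in wild-type libraries. Epcam, Cdh1, Krt19, Cdx2 and Muc2 are not in the table used here. Fibroblast markers (5 of 6 in the table) summed to 1320 to 1359 CPM in knock-out and 1008 to 1025 CPM in wild-type libraries, and 4 of the 5 rose. Leukocyte markers (5 of 7 in the table) summed to 18.8 to 23.5 CPM in knock-out and 18.7 to 23.0 CPM in wild-type libraries, but within that sum the lysozyme gene Lyz2, tested only through its knock-out level, rose (log2 fold change 3.93, edgeR adjusted p = 1.37e-15) and the receptor gene Csf1r fell (-1.19, adjusted p = 2.28e-08). Endothelial markers (3 of 4 in the table) summed to 1.96 to 3.11 CPM in knock-out and 0.471 to 1.94 CPM in wild-type libraries. Of these only Pecam1 had enough reads for a test, through the knock-out libraries alone, and it rose (log2 fold change 2.08, edgeR adjusted p = 2.51e-04). Kdr and Tek overlapped between the genotypes. The part that these shifts in marker levels play in the WNT results was not tested, and in bulk RNA fewer cells of a type and less RNA per cell cannot be told apart.

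Promoters are shown for WNT genes that were called with an estimated change of at least 1.5-fold, since the compared quantity is transcript level and transcription begins there. RefSeq (GRCm38.p6, the assembly of mm10) gave a start for 22 of the 37 genes, with 33 starts in all. The 7 shown, from 5 genes that were higher and 2 that were lower in the knock-out, are all of those with a single start in its promoter table. They cover 250 bases that end just before that start, which for Dkk2, Wnt9a and Wnt10b lies inside the span of the whole gene in RefSeq's gene table, 5′ to 3′ on the gene's own strand, with CpG dinucleotides in capitals.
Wnt9a, higher in the knock-out, chr11:59306680-59306929, plus strand: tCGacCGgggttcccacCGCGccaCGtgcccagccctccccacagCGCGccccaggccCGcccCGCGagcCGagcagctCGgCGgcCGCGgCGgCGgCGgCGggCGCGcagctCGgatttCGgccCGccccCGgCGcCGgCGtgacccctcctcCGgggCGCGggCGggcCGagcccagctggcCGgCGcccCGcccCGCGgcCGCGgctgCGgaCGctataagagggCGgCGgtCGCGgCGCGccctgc
Wnt10b, higher in the knock-out, chr15:98778151-98778400, minus strand: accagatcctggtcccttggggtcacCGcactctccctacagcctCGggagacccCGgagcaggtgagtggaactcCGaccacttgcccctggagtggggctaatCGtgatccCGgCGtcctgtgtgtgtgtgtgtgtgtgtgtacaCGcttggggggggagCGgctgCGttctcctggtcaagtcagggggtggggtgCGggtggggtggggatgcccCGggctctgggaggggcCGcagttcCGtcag
Dkk2, higher in the knock-out, chr3:132085042-132085291, plus strand: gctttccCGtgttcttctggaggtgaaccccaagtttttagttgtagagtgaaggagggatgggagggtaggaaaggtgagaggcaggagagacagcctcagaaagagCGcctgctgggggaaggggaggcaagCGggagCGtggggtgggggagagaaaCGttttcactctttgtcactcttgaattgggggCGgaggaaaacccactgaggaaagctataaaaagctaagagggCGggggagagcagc
Fzd7, higher in the knock-out, chr1:59481897-59482146, plus strand: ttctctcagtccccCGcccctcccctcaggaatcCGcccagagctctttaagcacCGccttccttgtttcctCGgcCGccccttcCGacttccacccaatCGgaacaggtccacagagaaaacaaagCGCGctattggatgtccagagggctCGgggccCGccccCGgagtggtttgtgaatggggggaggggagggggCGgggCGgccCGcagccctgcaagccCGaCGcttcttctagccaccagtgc
Lgr4, higher in the knock-out, chr2:109917397-109917646, plus strand: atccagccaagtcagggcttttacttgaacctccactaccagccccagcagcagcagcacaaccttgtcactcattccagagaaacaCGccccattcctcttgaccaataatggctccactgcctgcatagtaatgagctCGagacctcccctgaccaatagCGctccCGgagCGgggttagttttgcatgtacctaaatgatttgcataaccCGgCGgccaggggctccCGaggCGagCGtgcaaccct
Gsk3b, lower in the knock-out, chr16:38088751-38089000, plus strand: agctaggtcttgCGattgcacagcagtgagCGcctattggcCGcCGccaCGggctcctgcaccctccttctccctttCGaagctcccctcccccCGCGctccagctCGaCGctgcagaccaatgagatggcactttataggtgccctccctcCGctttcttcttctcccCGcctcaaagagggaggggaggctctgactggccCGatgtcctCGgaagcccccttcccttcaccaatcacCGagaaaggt
Wls, lower in the knock-out, chr3:159839400-159839649, plus strand: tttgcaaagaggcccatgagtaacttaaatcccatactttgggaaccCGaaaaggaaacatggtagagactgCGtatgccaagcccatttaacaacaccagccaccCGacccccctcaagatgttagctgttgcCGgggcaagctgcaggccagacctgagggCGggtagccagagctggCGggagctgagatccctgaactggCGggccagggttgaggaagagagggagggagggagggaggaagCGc

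The printed promoters of higher genes lay on both sides of the WNT genes' median CpG number, as did those of lower genes. Wnt9a had 48 in its window, the most of the 33 starts, Fzd7 had 17, Wnt10b had 14, Lgr4 had 10 and Dkk2 had 7. Gsk3b had 15 and Wls had 8. The median was 14 over the 33 starts of the WNT genes and 6 over all 32851 promoters. The TCF/LEF core letters CTTTGAT or CTTTGAA, searched on both strands, were found at 2 of the 33 starts, which is 6.06%. They were found at 7.48% of all promoters, 3.21% for CTTTGAT and 4.46% for CTTTGAA, and a window with both was counted once. The matches were CTTTGAA at Gsk3a and CTTTGAT at 1 of the Wnt5b starts, and none of the 7 printed windows held either.

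Of the 29 tested WNT genes, 24 changed between knock-out and wild-type libraries, 13 upward and 11 downward (edgeR quasi-likelihood test, Benjamini-Hochberg adjusted p under 0.05). That is 82.8%, beside 66.2% of the 13013 genes tested, so most genes of either kind passed the threshold. Over all genes, 33.1% were called higher and 33.2% lower. Of the 29 tested WNT genes, 13 were called with an estimated change of at least 1.5-fold, 9 higher and 4 lower. The same held for 33.0% of the 13013 genes tested (18.7% higher and 14.4% lower). When the null hypothesis was itself a 1.5-fold change (edgeR's glmTreat), 10 of the 29 were called, beside 20.0% of the 13013 genes tested. Fzd7, Wnt10b and Wls were not called by glmTreat (adjusted p = 0.683, 0.0553 and 0.142). In 23 of the 29, or 79.3%, the 3 knock-out libraries did not overlap the 3 wild-type libraries, beside 68.7% of all genes. The median log2 fold change was 0.06 for the 29 and 0.02 for all genes. The 3 tested ligands and 4 of 6 tested Frizzled receptors were among those higher, as the plot of fold changes by role shows. Of the 7 tested genes assigned here to the destruction complex, 6 were among those lower. Of the ligands, Wnt9a reached the minimum for testing only through the knock-out libraries. Of the Frizzled calls, that of Fzd3 was lost under 10 of 16 alternatives and that of Fzd5 under 7. With upper-quartile scaling the 13 against 11 became 16 against 9, and with library size alone it became 16 against 10. The share of all genes' calls that were higher was then 63.7% and 60.5%, against 49.9% with TMM.

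**Figure D1:**
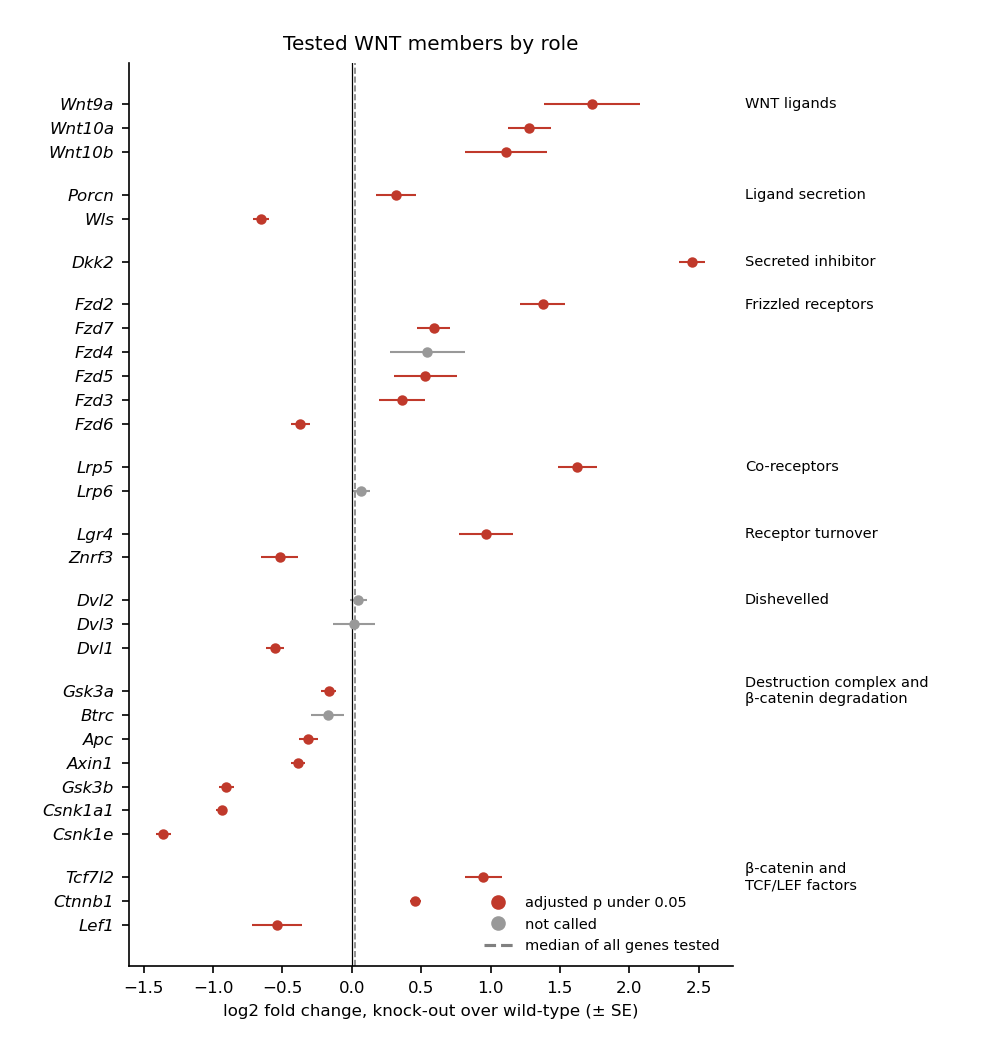
Log2 fold change, knock-out over wild-type, with its standard error for the 29 tested WNT genes, grouped by role, with called genes coloured. The ligands sit between 1.11 and 1.73 and Dkk2 at 2.45, while the 7 genes assigned here to the destruction complex sit between -1.36 and -0.17. The ligand at 1.73, Wnt9a, reached the minimum for testing only through the knock-out libraries.

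All 3 ligands with enough reads were higher in the knock-out. Wnt10a, a ligand of the beta-catenin branch known from hair, tooth and skin development, lies on chromosome 1 (74792019 to 74804176). It had 21.7, 23.4 and 22.7 CPM in knock-out libraries, against 9.74, 6.32 and 11.9 CPM in wild-type libraries. Every knock-out library was above every wild-type library, and the wild-type libraries were the more spread. Wnt10a rose 2.43-fold (log2 fold change 1.28, SE 0.152, edgeR adjusted p = 9.67e-11). Wnt9a, a ligand known from joint and skeletal development, had 5.58, 4.24 and 3.56 CPM in knock-out libraries, against 0.943, 2.04 and 1.08 CPM in wild-type libraries. The groups did not overlap, and the gene reached the minimum for testing only through the knock-out libraries, so that it was tested at all depended on its level there. Wnt9a rose 3.32-fold (log2 fold change 1.73, SE 0.348, edgeR adjusted p = 1.83e-05).

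Wnt10b, the close paralogue of Wnt10a known for its part in bone and fat formation, was also higher. It had 4.11, 3.98 and 7.59 CPM in knock-out libraries, against 1.96, 2.86 and 2.48 CPM in wild-type libraries. Library sg3 was well above the other knock-out libraries, though all 3 were above all wild-type libraries. Wnt10b rose 2.16-fold (log2 fold change 1.11, SE 0.296, edgeR adjusted p = 9.09e-04), and without library sg3 the log2 fold change was 0.73 and the call was lost (adjusted p = 0.0612).

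The other 4 ligands of the table were too low for the test and are given as counts. Wnt5b, a ligand mostly assigned to beta-catenin-independent signalling, had 6, 10 and 14 counts in knock-out libraries and 0, 1 and 0 in wild-type libraries. Its ratio of depth-scaled sums, knock-out over wild-type, was 29.6 with an exact 95% interval of 4.93 to 1210, which covers counting error only. Wnt7b, a ligand of developing lung and kidney, had 8, 22 and 9 counts in knock-out libraries and 0, 6 and 0 in wild-type libraries, a ratio of 6.42 (2.70 to 18.6). Neither gene overlapped between the genotypes, and in both the wild-type signal came from replicate 2. Fitted with no filter on low counts, both were called higher (edgeR adjusted p = 0.000285 for Wnt5b and 0.00276 for Wnt7b). Every gene of the deposited table has reads in 3 or more libraries, and both met that only through the knock-out libraries. That they could be fitted at all therefore depended on their level there. Wnt2b, a mesenchymal ligand of the gut, had 3, 2 and 5 counts in knock-out libraries and 4, 4 and 2 in wild-type libraries, with overlapping groups and a ratio of 0.988 (0.369 to 2.65). Wnt8a, an embryonic ligand, had 1 count in each knock-out library and 0 in each wild-type library, and no fold is given because both lie under the floor of 3 counts.

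**Figure D2:**
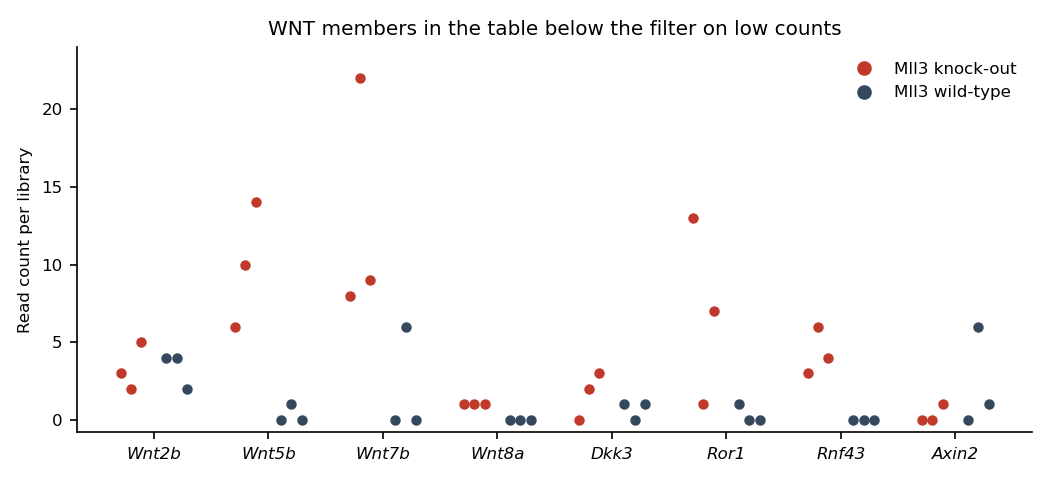
Read counts per library for the 8 WNT genes below the minimum for testing, knock-out libraries left of wild-type libraries. Wnt5b, Wnt7b, Ror1 and Rnf43 have most of their counts in the knock-out, while Axin2 has 7 counts in wild-type libraries and 1 in knock-out libraries.

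The 2 genes of ligand secretion moved in opposite directions. Wls, the carrier that brings WNT proteins to the cell surface, had 81.7, 82.8 and 82.6 CPM in knock-out libraries, against 137, 133 and 119 CPM in wild-type libraries. The knock-out libraries lay close together and well below all wild-type libraries. Wls fell 1.58-fold (log2 fold change -0.66, SE 0.0570, edgeR adjusted p = 3.09e-15). Porcn, the acyltransferase that attaches the lipid WNT proteins need, was at 14.4 to 17.0 CPM in knock-out and 11.9 to 14.3 CPM in wild-type libraries. Porcn passed narrowly (log2 fold change 0.32, SE 0.145, edgeR adjusted p = 0.0468), and the call was lost without any 1 of 4 libraries: wild-type replicate 1 or 2, sg1 or sg3.

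Dkk2, a secreted protein that binds Lrp5 and Lrp6 and blocks or, in some settings, weakly stimulates signalling, had the greatest fold change of the 29 tested genes. It lies on chromosome 3 (132085266 to 132180304) and had 70.4, 68.0 and 75.3 CPM in knock-out libraries, against 14.4, 12.0 and 12.3 CPM in wild-type libraries. Each genotype was tight around its own level, with a wide gap between them. Dkk2 rose 5.47-fold (log2 fold change 2.45, SE 0.0953, edgeR adjusted p = 3.43e-30). Of the other secreted inhibitors among the 64 genes only Dkk3, a divergent Dickkopf protein, was in the table, with 0, 2 and 3 counts in knock-out libraries and 1, 0 and 1 in wild-type libraries. Those counts overlapped, and the ratio of 2.47 had an interval from 0.404 to 25.9.

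**Figure D3:**
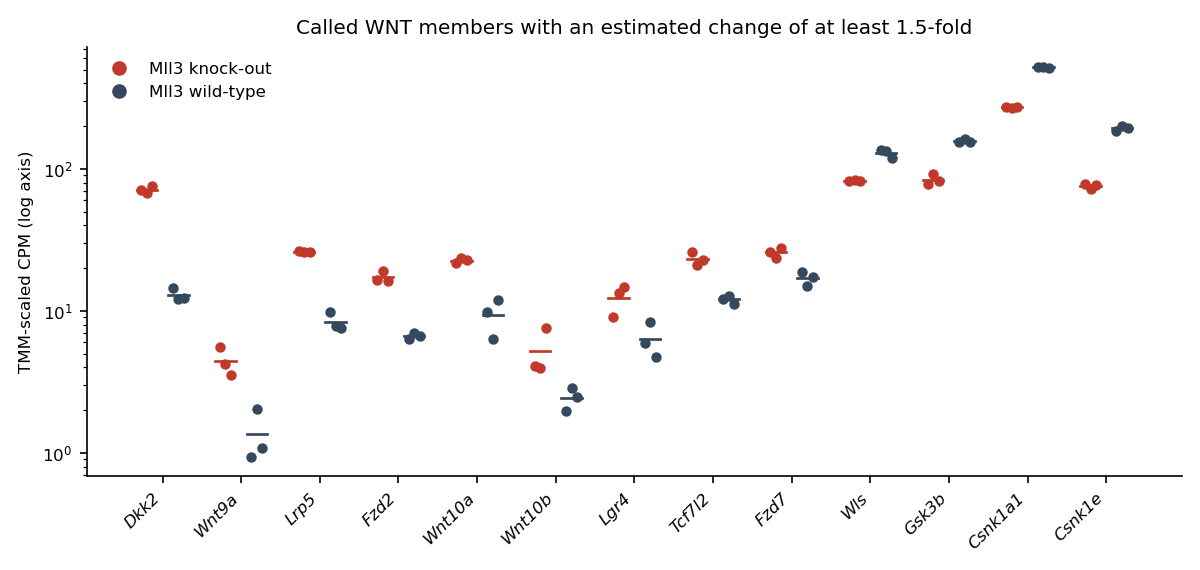
TMM-scaled CPM per library on a log axis for the 13 called WNT genes with an estimated change of at least 1.5-fold, knock-out points left of wild-type points, with bars at the group means. Dkk2 stands at 68.0 to 75.3 CPM in knock-out and 12.0 to 14.4 CPM in wild-type libraries, and in every gene plotted the genotypes do not overlap.

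Of the 6 tested Frizzled receptors, which are the membrane receptors for WNT ligands, 4 rose and 1 fell. Fzd2 had 16.4, 18.9 and 16.3 CPM in knock-out libraries, against 6.36, 6.93 and 6.68 CPM in wild-type libraries. The genotypes were far apart relative to their spread, and Fzd2 rose 2.59-fold (log2 fold change 1.38, SE 0.161, edgeR adjusted p = 6.56e-11). Fzd7, a receptor of intestinal stem cells, had 25.9, 23.6 and 27.9 CPM in knock-out libraries, against 18.8, 15.0 and 17.4 CPM in wild-type libraries. Those groups did not overlap either, and Fzd7 rose 1.51-fold (log2 fold change 0.59, SE 0.120, edgeR adjusted p = 2.35e-05).

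The other Frizzled genes had smaller fold changes. Fzd5, a receptor important for Paneth cells, and Fzd3, known from axon guidance, rose with overlapping groups (log2 fold changes 0.53 and 0.36, SE 0.229 and 0.165, edgeR adjusted p = 0.0376 and 0.0474). Fzd5 ran from 6.17 to 7.98 CPM in knock-out and from 3.26 to 6.52 CPM in wild-type libraries, where replicate 1 was the high one. The Fzd5 call was lost without wild-type replicate 2 (log2 fold change 0.32) or 3 and without library sg2 or sg3, and the Fzd3 call was lost without any 1 library except wild-type replicate 1. Fzd4, a receptor of retinal vessels, was at 4.23 to 5.48 CPM in knock-out and 2.59 to 4.21 CPM in wild-type libraries, without overlap, but was not called (log2 fold change 0.55, SE 0.267, edgeR adjusted p = 0.0676). Fzd6, a receptor mainly of planar polarity, fell to 51.4 to 55.3 CPM in knock-out libraries, against 69.2 to 70.7 CPM in wild-type libraries (log2 fold change -0.37, SE 0.0696, edgeR adjusted p = 5.47e-06). With upper-quartile scaling the fall of Fzd6 was -0.21.

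Of the co-receptors that act with Frizzled, Lrp5 rose and Lrp6 was not called. Lrp5 (chromosome 19, 3584825 to 3686585) had 26.3, 26.1 and 26.0 CPM in knock-out libraries, against 9.74, 7.85 and 7.55 CPM in wild-type libraries. The 3 knock-out libraries were nearly equal and lay far above the wild-type libraries. Lrp5 rose 3.09-fold (log2 fold change 1.63, SE 0.138, edgeR adjusted p = 1.35e-15). Its paralogue Lrp6 was at 75.0 to 76.7 CPM in knock-out and 67.1 to 79.1 CPM in wild-type libraries, overlapped, and was not called (log2 fold change 0.06, SE 0.0658, edgeR adjusted p = 0.398). Ror1, a receptor tyrosine kinase for Wnt5a-type ligands, had 13, 1 and 7 counts in knock-out libraries and 1, 0 and 0 in wild-type libraries. Library sg2 matched the highest wild-type count for Ror1, the ratio of sums was 20.8 (3.34 to 858), and with no filter the gene was called higher (edgeR adjusted p = 0.00455). As with Wnt5b, its row in the deposited table depended on the knock-out libraries.

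Genes that set how long receptors stay on the membrane were split. Lgr4, the R-spondin receptor that protects Frizzled from removal, had 9.10, 13.3 and 14.8 CPM in knock-out libraries, against 5.97, 8.36 and 4.74 CPM in wild-type libraries. The groups lay next to each other without overlapping, and Lgr4 rose 1.95-fold (log2 fold change 0.97, SE 0.194, edgeR adjusted p = 1.87e-05). Znrf3, a ubiquitin ligase that removes Frizzled, was at 13.5 to 15.4 CPM in knock-out and 18.6 to 22.6 CPM in wild-type libraries, without overlap, and fell (log2 fold change -0.52, SE 0.133, edgeR adjusted p = 5.54e-04). Rnf43, the partner ligase of Znrf3, had 3, 6 and 4 counts in knock-out libraries and 0 in each wild-type library. Against a floor of 3 counts per library that is at least 1.38-fold higher, and with no filter Rnf43 was called higher (edgeR adjusted p = 0.00667). Every gene of the deposited table has reads in 3 or more libraries, which Rnf43 had only through the knock-out libraries. That it could be fitted at all therefore depended on its level there.

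Among the Dishevelled genes, which carry the signal from Frizzled to the destruction complex, Dvl1 fell and the other 2 were not called. Dvl1 was at 58.6 to 65.6 CPM in knock-out and 84.7 to 97.7 CPM in wild-type libraries, without overlap (log2 fold change -0.55, SE 0.0660, edgeR adjusted p = 1.28e-10). Dvl2 was at 76.2 to 79.5 CPM in knock-out and 71.5 to 76.5 CPM in wild-type libraries, and Dvl3 at 11.9 to 15.8 CPM in knock-out and 10.9 to 14.5 CPM in wild-type libraries. Both overlapped, with log2 fold changes of 0.05 for Dvl2 (SE 0.0633, edgeR adjusted p = 0.521) and 0.02 for Dvl3 (SE 0.153, adjusted p = 0.936).

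Of the 7 tested genes assigned here to the destruction complex, 6 fell and none rose, with a median log2 fold change of -0.39. Under upper-quartile scaling, library size alone or removal of chromosome medians 5 of the 7 fell and none rose. Among all genes, 3183 and 3440 of 13013 and 4101 of 12095 were called lower under those settings. Other partners of the complex were listed apart, and of the 14 tested 5 rose and 6 fell. Those that rose included Amer1 (log2 fold change 0.72, edgeR adjusted p = 0.00125) and Ppp2r1a (0.21, adjusted p = 9.42e-06), named after their values were seen. Csnk1e, casein kinase 1 epsilon, which acts on both Dishevelled and the complex, had 77.6, 71.7 and 76.4 CPM in knock-out libraries, against 186, 199 and 194 CPM in wild-type libraries. The gap was many times the spread within either genotype. Csnk1e fell 2.56-fold (log2 fold change -1.36, SE 0.0527, edgeR adjusted p = 3.21e-30). Csnk1a1, the casein kinase that makes the priming mark on beta-catenin, had 270, 267 and 273 CPM in knock-out libraries, against 525, 519 and 509 CPM in wild-type libraries. Here too each genotype was tight, and Csnk1a1 fell 1.92-fold (log2 fold change -0.94, SE 0.0377, edgeR adjusted p = 1.51e-29).

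Gsk3b, the kinase that completes the degradation mark, had 78.4, 91.8 and 81.5 CPM in knock-out libraries, against 153, 163 and 156 CPM in wild-type libraries. All knock-out libraries were far below all wild-type libraries, and Gsk3b fell 1.87-fold (log2 fold change -0.90, SE 0.0558, edgeR adjusted p = 3.68e-21). Its paralogue Gsk3a was at 97.8 to 112 CPM in knock-out and 116 to 124 CPM in wild-type libraries (log2 fold change -0.17, SE 0.0557, edgeR adjusted p = 0.00690). The Gsk3a call was lost without library sg1 (-0.12, adjusted p = 0.0688) and with upper-quartile scaling or library size alone.

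The scaffolds Axin1 and Apc fell with smaller fold changes than Csnk1e, Csnk1a1 and Gsk3b, a difference between genes that was not tested. Axin1, the scaffold on which the complex is built, had 111, 105 and 113 CPM in knock-out libraries, against 143, 145 and 143 CPM in wild-type libraries. It fell without overlap (log2 fold change -0.39, SE 0.0516, edgeR adjusted p = 2.34e-09), and the value was -0.23 with upper-quartile scaling. Apc, the tumour suppressor most often mutated in colorectal cancer, had 64.7, 73.7 and 66.1 CPM in knock-out libraries, against 83.8, 81.1 and 89.6 CPM in wild-type libraries. The groups did not overlap and Apc fell (log2 fold change -0.31, SE 0.0654, edgeR adjusted p = 3.60e-05). The median of its chromosome, 18, was also -0.31, and with chromosome medians removed the Apc value was 0.0003 and not called. Btrc, the ubiquitin ligase subunit that reads the mark on beta-catenin, was at 19.5 to 23.5 CPM in knock-out and 21.0 to 26.2 CPM in wild-type libraries, overlapped and was not called (log2 fold change -0.17, SE 0.118, edgeR adjusted p = 0.192). Axin2, the paralogue of Axin1 and a standard target of beta-catenin, had 0, 0 and 1 counts in knock-out libraries and 0, 6 and 1 in wild-type libraries. Those groups overlapped, 6 of the 8 reads came from wild-type replicate 2, and the ratio of 0.141 had an interval from 0.0031 to 1.10.

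The nuclear factors rose and fell. Ctnnb1, which encodes beta-catenin, had 355, 350 and 374 CPM in knock-out libraries, against 270, 255 and 259 CPM in wild-type libraries. Every knock-out library was above every wild-type library, and Ctnnb1 rose 1.37-fold (log2 fold change 0.46, SE 0.0402, edgeR adjusted p = 4.71e-15). Tcf7l2, the main TCF factor of the intestine, had 26.0, 20.9 and 22.9 CPM in knock-out libraries, against 12.1, 12.7 and 11.2 CPM in wild-type libraries. It too was without overlap and rose 1.93-fold (log2 fold change 0.95, SE 0.133, edgeR adjusted p = 9.99e-09). Lef1, a relative of Tcf7l2 that is also a beta-catenin target, had 7.93, 6.92 and 7.11 CPM in knock-out libraries, against 9.27, 12.3 and 10.4 CPM in wild-type libraries. Lef1 fell without overlap (log2 fold change -0.54, SE 0.181, edgeR adjusted p = 0.00786), and the call was lost without wild-type replicate 2 (-0.42, adjusted p = 0.0656), under upper-quartile scaling, and on removal of chromosome medians.

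Beyond the 64 genes, 5 lists of other WNT pathway genes held 93 names, of which 61 were tested. Of these 50, or 82.0%, were called, beside 66.2% of all genes, 26 upward and 24 downward, as the plot of the pathway lists shows. The split was 31 against 21 under upper-quartile scaling and 30 against 21 by library size alone. Among the genes called upward, 3 (Draxin, Celsr2 and Daam2) reached the minimum for testing only through the knock-out libraries. No gene of these lists did so through the wild-type libraries alone. The list of known WNT targets had 11 tested of 20 and moved both ways, with 5 higher, 5 lower, 1 not called and a median of -0.08, which was 0.04 with scaling by library size alone and 0.07 by the upper quartile. The 4 targets with the smallest p were all lower. Myc, the growth-promoting transcription factor, had 166, 170 and 167 CPM in knock-out libraries, against 302, 301 and 313 CPM in wild-type libraries (log2 fold change -0.86, SE 0.0423, edgeR adjusted p = 1.54e-25). The genotypes were well apart. Jun, a subunit of AP-1, fell by 1.32 on the log2 scale, Vegfa, the vascular growth factor, by 0.84, and the adhesion receptor Cd44 by 0.38 (edgeR adjusted p = 3.16e-26, 5.46e-27 and 3.64e-14). The remaining target that fell, also named after its value was seen, was Ccn4 (log2 fold change -1.05, edgeR adjusted p = 6.15e-05). The 5 that rose, named after their values were seen, were Ephb3 (1.72), Id2 (1.06), Birc5 (0.58), Ephb2 (0.41) and the cyclin gene Ccnd1 (0.22), each value a log2 fold change. All of these targets have other inputs besides beta-catenin.

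Of the extracellular and receptor genes outside the 64, 6 of 20 were tested, and 3 rose, 1 fell and 2 were not called. Igfbp4, a growth factor binding protein that can also bind WNT receptors, had 253, 228 and 243 CPM in knock-out libraries, against 97.9, 82.8 and 92.5 CPM in wild-type libraries, and rose without overlap (log2 fold change 1.40, SE 0.0522, edgeR adjusted p = 4.76e-31). Draxin, a guidance protein that can inhibit WNT signalling, had 6.26, 6.57 and 7.11 CPM in knock-out libraries, against 0.943, 0.306 and 0.647 CPM in wild-type libraries. Draxin rose (log2 fold change 3.32, SE 0.350, edgeR adjusted p = 2.69e-12), and it reached the minimum for testing through the knock-out libraries alone. Apcdd1, a membrane inhibitor of WNT, rose by 0.83 and Lgr6, an R-spondin receptor, fell by 0.65 on the log2 scale (edgeR adjusted p = 0.00152 and 3.27e-04).

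**Figure D4:**
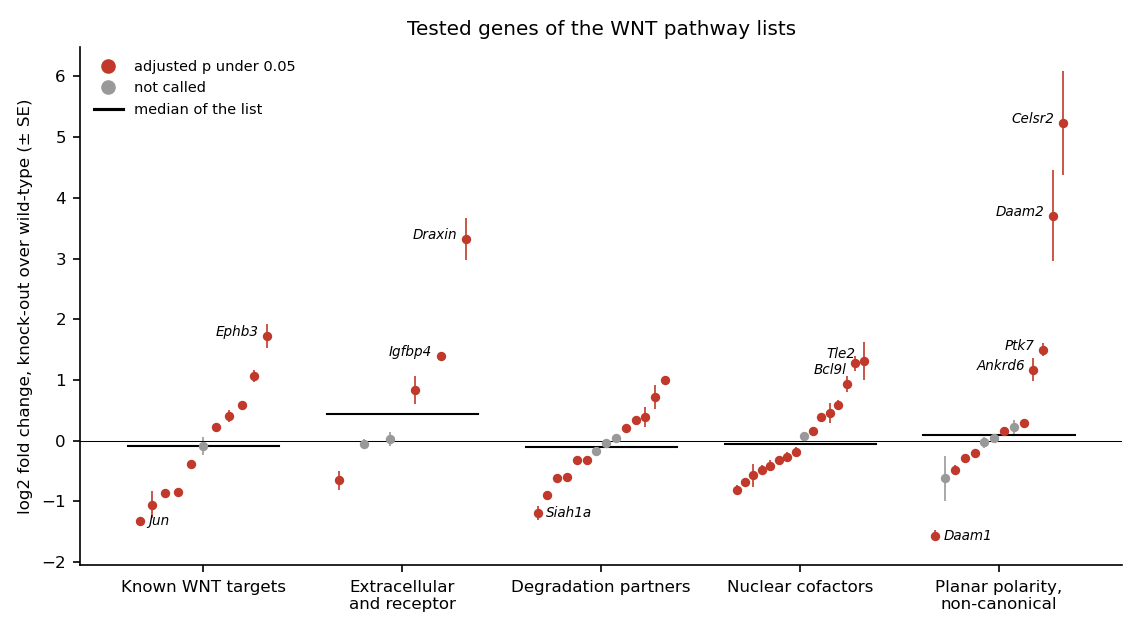
Log2 fold change, knock-out over wild-type, with its standard error for the 61 tested genes of the 5 pathway lists, each list sorted by value, with called genes coloured and a line at each list's median. The medians lie between -0.10 and 0.43 (with TMM scaling) and every list has members on both sides of 0.

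Partners of the degradation machinery (14 of 17 tested) gave 5 higher, 6 lower and 3 not called, and their median of -0.10 turned to 0.05 under upper-quartile scaling and 0.02 by library size alone. Csnk1g2, a membrane-bound casein kinase that acts on the co-receptors, rose (log2 fold change 1.00, SE 0.0565, edgeR adjusted p = 9.71e-23). Tnks, the tankyrase that marks Axin for removal, fell by 0.89, Fbxw11, the paralogue of Btrc, by 0.60 and Siah1a, a ubiquitin ligase, by 1.19 on the log2 scale (edgeR adjusted p = 9.57e-21, 2.00e-14 and 3.05e-13). Nuclear cofactors (16 of 18 tested) gave 7 higher, 8 lower and 1 not called, and their median of -0.05 turned to 0.10 and 0.07 under those scalings. Bcl9l, a coactivator that binds beta-catenin directly, rose by 1.27 and Tbl1xr1, an adaptor of corepressor and beta-catenin complexes, by 0.59, while the acetyltransferase Ep300 fell by 0.69 and the corepressor Tle3 by 0.81 (edgeR adjusted p = 9.31e-14, 7.22e-10, 7.98e-16 and 8.64e-12). Of the planar polarity and beta-catenin-independent genes (14 of 18 tested), 6 were higher, 4 lower and 4 not called, or 8 higher and 3 lower under either of those scalings. Over all genes, 63.7% of calls were higher under upper-quartile scaling and 60.5% by library size alone, against 49.9% with TMM.

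In that last list the receptor-like Ptk7 had 59.3, 55.1 and 57.6 CPM in knock-out libraries, against 15.9, 20.9 and 24.9 CPM in wild-type libraries (log2 fold change 1.50, SE 0.102, edgeR adjusted p = 2.81e-18). Daam1, a formin that binds Dishevelled, had 17.9, 17.6 and 18.2 CPM in knock-out libraries, against 53.7, 52.2 and 53.2 CPM in wild-type libraries (log2 fold change -1.57, SE 0.0939, edgeR adjusted p = 1.10e-21). Neither gene's groups overlapped. Rhoa, the small GTPase downstream of Daam1, fell by 0.28 on the log2 scale (edgeR adjusted p = 9.00e-10). Celsr2, an atypical cadherin of planar polarity, had 15, 19 and 18 counts in knock-out libraries and 0, 1 and 0 in wild-type libraries, was called higher (edgeR adjusted p = 4.37e-07), and was tested only because of the knock-out libraries.

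Neighbouring genes were compared because the change between genotypes differed between chromosomes. Median log2 fold changes of tested genes ran from -0.35 on chromosome 8 to 0.36 on chromosome 10. Dkk2 rose while the 10 tested genes within 1 Mb of it had a median log2 fold change of -0.48, with 2 called higher and 6 lower. Lrp5 rose among 34 neighbours with a median of -0.18, and Csnk1e fell among 44 with a median of 0.01. Wnt10b rose by 1.11 in a stretch where 31 of 44 neighbours were called higher and 4 lower, with a median of 0.44. Fzd6 fell by 0.37, while its 9 neighbours had a median of -0.47, with 8 called lower and 1 higher. Fzd3 and Porcn, both close to the threshold, had neighbours with medians of 0.55 and 0.30, and with chromosome medians removed neither was called. Chromosome 18, which carries Csnk1a1, had a median of -0.31, and once chromosome medians were removed Csnk1a1 was still called, at -0.63. The plot against chromosomal neighbours shows these values for every tested WNT gene.

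**Figure D5:**
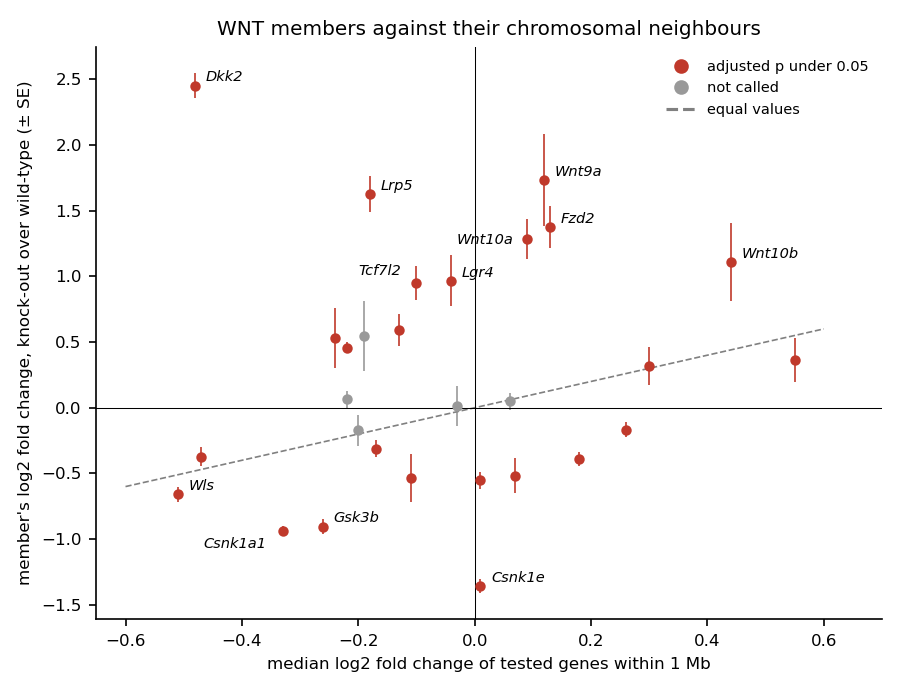
Log2 fold change, knock-out over wild-type, with its standard error for each tested WNT gene against the median of its tested neighbours within 1 Mb, on the same log2 scale. Dkk2 (2.45 against -0.48), Lrp5 (1.63 against -0.18) and Csnk1e (-1.36 against 0.01) lie far from the dashed line of equal values.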

How the data were processed

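Polyadenylated RNA was sequenced from strand-specific directional libraries, per the labels' protocols, and all 6 RNA-seq libraries carry the same batch date. The authors deposited 1 table of whole-number counts of reads, with genes as Ensembl identifiers. The tools named in the submitters' processing notes are STAR, HTSeq, fastp, SEACR, deepTools and Bowtie2, without role or version, and the build named is mm10. The sources used here do not give the annotation release or the counting strand. Every gene of the table has reads in 3 or more libraries. Why other genes, among them 27 of the 64 WNT genes, have no row is not known. The other 6 samples of the 12 (CUT&Tag and single-cell RNA-seq) are not analysed here.

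Wild-type columns were matched to samples by group and number, and knock-out columns to the group only. Symbols were found for 17650 of 17718 identifiers and positions for 15749, from RefSeq on GRCm38.p6. Genes passing edgeR's filterByExpr (minimum count 10, minimum total 15), 13013 in all, were scaled with TMM factors and compared in R 4.3.3 with the quasi-likelihood F test of edgeR 4.0.16 (limma 3.58.1; robust, Benjamini-Hochberg adjustment over all genes tested, threshold 0.05, n = 3 per genotype). Every log2 fold change is knock-out over wild-type, and standard errors (SE) come from the F statistic. Floors of 3 counts and exact 95% intervals cover counting error only. No exon lengths were used, so levels are compared within a gene and not between genes. Library pairs of a genotype differed by 2.17 to 4.04 times the counting variance on average, so none was merged. Alternatives were RLE, upper-quartile and library-size scaling, no filter, CPM of at least 1 in all libraries, limma voom, DESeq2 1.42.0, edgeR's glmTreat against a 1.5-fold change, removal of chromosome medians, an adjusted p of 0.01, and each library left out. The WNT genes and the pathway lists were chosen with earlier results of these data known. Values per library are given for called WNT genes with an estimated change of at least 1.5-fold, for those with 0 counts in a genotype and for Ctnnb1, Apc, Axin1, Axin2 and Lef1, and each pathway list names its 4 genes with the smallest p.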

Additional observations from a re-analysis of the deposited data

How the results depend on the processing

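Of the 24 WNT genes called, 10 kept their call and direction under all 16 alternatives (15 for Wnt9a, which, like Celsr2 and Draxin, the stricter filter removed). With glmTreat against a 1.5-fold change, 10 of 29 WNT genes were called (7 higher, 3 lower), 20 of 61 pathway list genes and 2602 of all 13013 genes. This test has a stricter null hypothesis by construction. Each library left out in turn gave 20 to 23 WNT genes, 48 to 51 pathway list genes and 8082 to 8717 of all genes. DESeq2 called 21 of 29 WNT genes, beside 8057 of all 13013 genes, and Fzd3, Fzd5 and Porcn were no longer among them. Removing chromosome medians left 20 of 29 WNT genes called, beside 8065 of the 12095 tested genes with a known chromosome. The median log2 fold change of all genes was 0.14 when scaled by library size alone and 0.17 by the upper quartile, against 0.02 with TMM, and the share of calls that were higher was 60.5% and 63.7%, against 49.9%. Gsk3a was then not called (-0.05 and -0.011), and Lrp6, Dvl2 and Fzd4 were called higher. Signs turned for Apc (0.0003) and Dvl2 (-0.0096) with chromosome medians removed, and for Dvl3 with no filter (-0.002), without wild-type replicate 3 (-0.11) and without library sg1 (-0.12), in a range of -0.12 to 0.089 over libraries left out; none of these values was called, and the cause was not tested. With chromosome medians removed Tnks stood at -0.54 and Csnk1g2 at 0.64, and with upper-quartile scaling Rhoa stood at -0.12 and Cd44 at -0.23. All 4 stayed called. Depth limits the 8 untested genes, whose wild-type counts were 0 to 6 a library. No paired analysis was possible because the knock-out columns carry no replicate number that the labels tie to a sample.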
